A study of Mus musculus with 4 samples.

Results

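The addition of Nurr1 to Foxa2 was followed by setting the bead array of cells that received both factors (Nurr1-Foxa2) against the array of cells that received Foxa2 alone. All probes with a gene symbol in the platform annotation and a detection p-value under 0.01 on at least 1 of these 2 arrays were taken, which gave 11128 of the 12484 named probes and of the 25697 probes in all. They represent 8048 of 8980 named genes. The cells were neural precursors from the cortex of ICR mouse embryos at embryonic day 12, expanded in medium with the growth factors bFGF and EGF. Nurr1-Foxa2 cells were incubated for 2 hours with supernatant of retrovirus carrying Nurr1 and Foxa2, Foxa2 cells with Foxa2 virus, Nurr1 cells with Nurr1 virus and Control cells with virus of the empty vector pCL. All 4 groups then spent 2 days without bFGF and EGF, which starts differentiation. The labels describe no selection of cells that took up virus, so each array holds RNA of the whole culture. Each group had 1 array, so no difference has a replicate check and no test between groups was made. The Nurr1 and Control arrays are used only where the same addition without Foxa2 is set beside this one.

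Nurr1, the product of Nr4a2, is an orphan nuclear receptor that binds DNA as a monomer at an element called NBRE, or as a dimer with itself or a retinoid X receptor. In midbrain dopamine neurons it is needed for the expression of Th and Slc6a3, the genes of tyrosine hydroxylase and the dopamine transporter. Foxa2 is a forkhead factor of the floor plate, the ventral midline tissue from which midbrain dopamine neurons arise, and it acts upstream of and together with Nurr1 there. Cortical precursors do not normally give rise to these neurons.

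The promoters of Th and Slc6a3 are shown because these 2 dopamine genes were among those furthest apart between the arrays, and those of Tyrp1 and Rxrg because they hold the NBRE. Each runs from 250 bases before to 50 bases after an annotated start, 5′ to 3′ on the gene's strand, from RefSeq (GRCm38.p6). That start is not always the first base of the gene. The gene spans of Slc6a3 and Rxrg begin at 73536128 and 167598362, upstream of their whole windows. That of Tyrp1 begins at 80834123, upstream of the start used. Th lies at chr7:142899946-142900245 on the minus strand, Slc6a3 at chr13:73536497-73536796, Tyrp1 at chr4:80833963-80834262 and Rxrg at chr1:167618015-167618314, all 3 on the plus strand. Capitals mark AAAGGTCA, the NBRE, or its reverse complement.
Th: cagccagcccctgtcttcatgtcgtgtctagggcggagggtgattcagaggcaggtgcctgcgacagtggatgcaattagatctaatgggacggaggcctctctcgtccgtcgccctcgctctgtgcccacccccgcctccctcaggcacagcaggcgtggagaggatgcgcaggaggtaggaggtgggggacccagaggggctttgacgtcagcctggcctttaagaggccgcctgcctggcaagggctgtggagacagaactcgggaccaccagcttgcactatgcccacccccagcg
Slc6a3: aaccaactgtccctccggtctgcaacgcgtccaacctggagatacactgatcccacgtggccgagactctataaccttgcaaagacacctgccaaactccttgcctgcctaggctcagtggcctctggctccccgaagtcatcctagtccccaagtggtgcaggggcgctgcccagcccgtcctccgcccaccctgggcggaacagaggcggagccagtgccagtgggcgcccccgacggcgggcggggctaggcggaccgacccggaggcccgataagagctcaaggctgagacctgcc
Tyrp1: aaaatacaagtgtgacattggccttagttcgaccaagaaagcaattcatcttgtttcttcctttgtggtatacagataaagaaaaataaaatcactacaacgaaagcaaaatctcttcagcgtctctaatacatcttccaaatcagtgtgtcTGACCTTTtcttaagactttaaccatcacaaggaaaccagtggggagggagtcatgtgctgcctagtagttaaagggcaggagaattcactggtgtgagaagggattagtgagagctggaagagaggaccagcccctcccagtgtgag
Rxrg: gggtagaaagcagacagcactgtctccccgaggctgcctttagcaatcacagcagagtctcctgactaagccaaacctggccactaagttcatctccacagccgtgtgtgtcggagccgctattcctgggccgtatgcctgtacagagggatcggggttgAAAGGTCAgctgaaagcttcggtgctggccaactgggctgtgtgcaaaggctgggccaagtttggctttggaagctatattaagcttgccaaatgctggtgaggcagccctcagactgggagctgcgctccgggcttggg
The NBRE letters, searched on both strands, were in neither dopamine gene's window. In Tyrp1 they began 98 bases before the start used and read on the other strand, and in Rxrg 90 bases before the start used there. Promoter sequences were found for 305 of the 388 genes higher by 2-fold or more, with 422 windows, and 1 window (0.237%) held the motif, that of Tyrp1. Of 301 windows of genes lower by 2-fold or more, 2 did (0.664%), those of Rxrg and Col23a1. Over all 8591 windows of genes in this comparison the share was 0.780% (67 windows), and over all 32851 promoter windows from RefSeq it was 1.51%. The share was thus not higher beside genes that differed.

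Deposited signals are mean bead intensities, and folds were taken after background correction and quantile normalization of the 2 arrays, so they differ from ratios of the signals. The median signal was 149 on the Nurr1-Foxa2 array and 145 on the Foxa2 array, and 44.4% and 44.6% of probes were detected on them. Both arrays detected 10222 of the named probes, the Nurr1-Foxa2 array alone 416 and the Foxa2 array alone 490. Across the probes detected on both, which are not independent replicates, log2 values correlated at r = 0.953. Where a gene was not detected on the dimmer array, its value there was raised to the lowest detected one, and the fold is a bound, written "at least". As an error only the disagreement among a gene's own probes can be given, and their log2 differences had a standard deviation of 0.20 over 2008 genes (0.22 among the dimmest genes and 0.15 among the brightest). How far separate cultures or virus batches would differ was not measured.

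Nr4a2 gave the check of the added factor. Its signal was 1620 on the Nurr1-Foxa2 array and 216 on the Foxa2 array, 11.7-fold higher. On the Nurr1 array it was 1669, and on the Control array 167, so both arrays labelled with Nurr1 were the high ones of their pair. Foxa2 itself has no named probe here, and whether its level was alike on both arrays was not analysed.

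Most genes lay close together on both arrays. Of 7454 genes detected on both, 81.8% differed by less than 1.5-fold, and the median difference over all 8048 genes was -0.05 (log2, Nurr1-Foxa2 minus Foxa2). At least 2-fold higher values with both factors were found for 388 genes (4.82% of all) and at least 2-fold lower values for 298 (3.70%). The counts of each list below for these 2 arrays are to be read beside these 2 shares. The lists were chosen with earlier results of these data known, so a count above these shares is a description and no independent support. The largest differences were on the higher side, with 100 genes at least 4-fold higher against 30 lower, and 31 at least 8-fold higher against 4 lower. The 8 genes nearest to the 2-fold line lay between 1.00 and 1.02 (log2) inside it and between 0.99 and 1.00 outside it on the higher side, so there was no gap at the line.

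**Figure D1:**
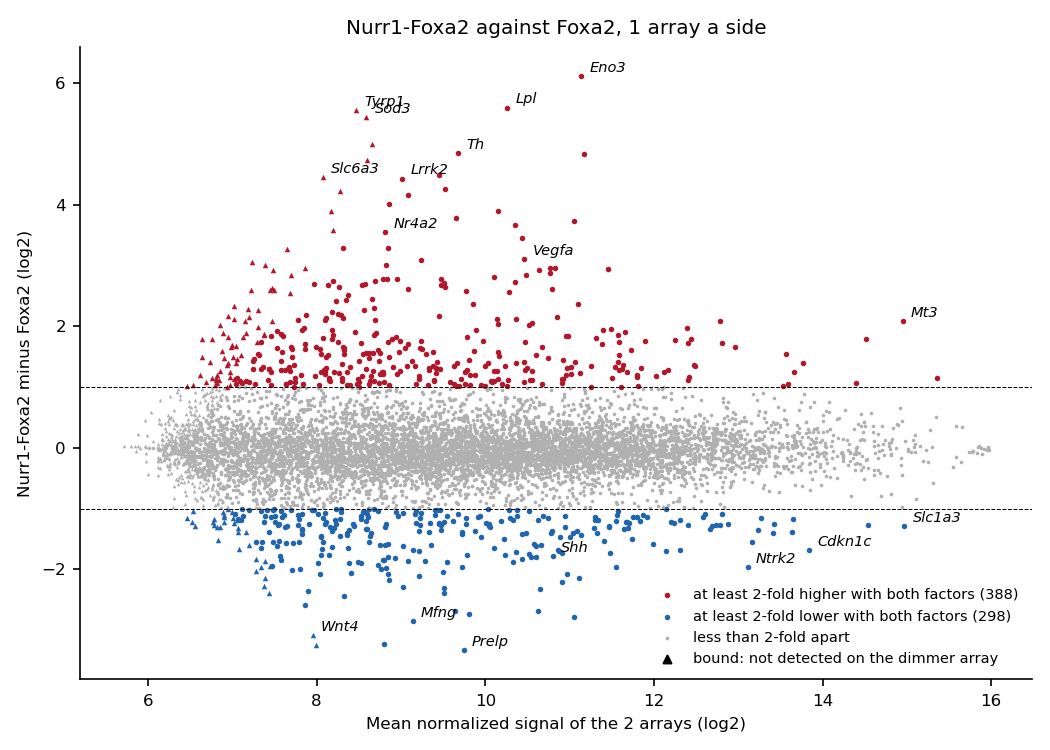
Difference between the Nurr1-Foxa2 and Foxa2 arrays (log2, vertical) against the mean normalized signal of both (log2, horizontal), 1 point per gene, with triangles for bounds and dashed lines at 2-fold. The 388 genes higher with both factors reach 6.13 (Eno3), while the 298 lower ones reach -3.33 (Prelp, log2).

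Genes of dopamine synthesis and transport divided into a pair that was far higher with both factors and others that were near their Foxa2 level. Th, whose enzyme limits the rate at which dopamine is made, had 4470 on the Nurr1-Foxa2 array and 237 on the Foxa2 array, 28.9-fold higher. Slc6a3, the dopamine transporter that takes dopamine back up, had 2023 with both factors and 113 with Foxa2, where it was not detected, so it was at least 22.0-fold higher. Both were low with Foxa2 alone. In RNA of a whole culture, fewer cells that express a gene and less of its RNA per cell cannot be told apart, here and in all lists. Ddc, which makes dopamine from L-DOPA, had 7392 with both factors and 5243 with Foxa2, a 1.41-fold difference. Gch1, the first enzyme of the tetrahydrobiopterin cofactor, had 2178 with both factors and 1366 with Foxa2, 1.65-fold higher by its brighter probe (log2 0.72) and nearly level by its other (0.11). Both genes were thus well above the lowest detected signal with Foxa2 alone (173). The cofactor genes Pts (1105 and 1319, log2 -0.26), Qdpr (1592 and 1851, -0.21) and Spr (778 and 771, 0.04) lay within about the spread between probes of 0, and Pcbd1 was detected on neither array. Slc18a2, Maoa and Aldh1a1 have no named probe.

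Of 34 listed identity genes of dopamine neurons, 15 had a named probe and 13 were detected. Nr4a2, the factor added by virus, is among them, so the count and median include it by design. Of the 13, 5 were at least 2-fold higher with both factors and none lower, with a list median of 0.55 (log2). Over all genes 4.82% were higher and 3.70% lower. The list's higher genes are given next. Besides Nr4a2 these were Nrip3 (588 with both factors and 195 with Foxa2, 4.56-fold), the nicotinic receptor subunit gene Chrna4 (2945 and 1012, 3.15-fold, with its other probes at 1.82 and at a bound of 0.56) and the early B-cell factor genes Ebf1 (355 and 136, at least 3.02-fold) and Ebf3 (781 and 345, 2.70-fold). The Ebf1 bound fell short of 2-fold with the authors' deposited values. The midbrain homeobox genes En2 (-0.45) and Lmx1b (-0.07) had bounds below 0, since neither was detected with both factors, and the dopamine receptor gene Drd2, not detected with Foxa2, had a bound of 0.06. Pitx3, Lmx1a, Foxa1 and Otx2 have no named probe.

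Receptors for neurotrophic factors differed in both directions. Ret, through which the neurotrophic factor GDNF signals, had 482 with both factors and 116, not detected, with Foxa2, at least 4.49-fold higher. Its co-receptor gene Gfra1 had 289 and 165, at least 2.25-fold higher, though under 2-fold without background correction. Ntrk2, the receptor for brain-derived neurotrophic factor, had 4572 with both factors and 17514 with Foxa2, 3.90-fold lower. Dimmer probes of Ntrk2, not detected on the Nurr1-Foxa2 array, gave smaller bounds of -0.96 and -0.39. Bdnf itself lay at 0.93 and Ntrk3 at -0.75, each below 2-fold.

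Among genes measured on both arrays, the 12 furthest above their Foxa2 level included Th and enzymes, membrane proteins and kinases outside the dopamine lists. Eno3, the muscle-type enolase of glycolysis, had a signal of 19418 with both factors and 357 with Foxa2 (69.9-fold). Lpl, lipoprotein lipase, had 8678 and 260 (48.6-fold). Next to Th came Cldn10, a claudin of tight junctions, with 12452 and 517 (28.7-fold), and its 3 probes gave log2 differences between 4.30 and 4.85. The secreted protein gene Mia was 22.5-fold higher, the kinase gene Lrrk2, mutated in familial Parkinson disease, 21.6-fold, Slc35f3 19.2-fold and the diacylglycerol kinase gene Dgkk 18.0-fold. Pkp2, of desmosomes, was 16.2-fold higher, Minar2 14.9-fold, the carbonic anhydrase gene Car2 13.8-fold and Dnajc6, the gene of auxilin, which uncoats clathrin vesicles, 13.3-fold. Several of these stood low with Foxa2 alone: Lrrk2 had a signal of 196 and Pkp2 200, near the lowest detected on that array (173), and their folds rest on those dim values.

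Of genes not detected with Foxa2 alone, Tyrp1, an enzyme of melanin synthesis, had 4220 with both factors and 94.7 with Foxa2, and was at least 47.3-fold higher by its brightest probe, with its other probes at bounds of 5.37 and 5.12 (log2). Sod3, the extracellular superoxide dismutase, had 3919 and 116 (at least 43.7-fold). Gpat3, an acyltransferase of triglyceride synthesis, was at least 32.2-fold higher, the lysosomal protease gene Ctsh at least 26.6-fold, the growth factor gene Fgf10 at least 18.7-fold and the lectin gene Clec2d at least 12.1-fold. Efhd1 was higher by at least 3.91 on the log2 scale. Of 4 detected pigment cell and neural crest genes, Tyrp1 and Mia were at least 2-fold higher, while Dct lay at -0.46, a bound, and Ednrb at -0.98.

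On the lower side Prelp, a leucine-rich matrix protein gene, had 359 with both factors and 2827 with Foxa2 (10.1-fold lower). Acta2, smooth muscle actin, had 236 and 1465 (9.41-fold), although its dimmer probes gave bounds of only -1.12 and -1.37. Mfng, which adds sugars to Notch receptors, had 301 and 1611 (7.23-fold), and Neurl1a, a ubiquitin ligase that acts on Notch ligands, 887 and 5641 (6.89-fold). Other lower genes were the uridine phosphorylase gene Upp1 (6.67-fold), the calpain gene Capn5 (6.44-fold), the urea transporter gene Slc14a2 (6.42-fold), Ccdc190 (6.02-fold), the manganese transporter gene Slc30a10 (5.43-fold), Crtac1 (5.22-fold), the complement gene C2 (5.14-fold) and the glycerophosphodiesterase gene Gdpd2 (5.02-fold). Not detected with both factors were Nt5e, an ectonucleotidase gene (at least 9.54-fold lower), the ligand gene Wnt4 (at least 8.52-fold), Efcab1 (at least 5.22-fold), Lgi3 (at least 4.84-fold), Spsb1 (at least 4.44-fold), Eya1 (at least 4.06-fold), Fancc (at least 3.88-fold, with dimmer probes at bounds of -1.33 and -0.77) and the water channel gene Aqp9 (at least 3.87-fold).

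**Figure D2:**
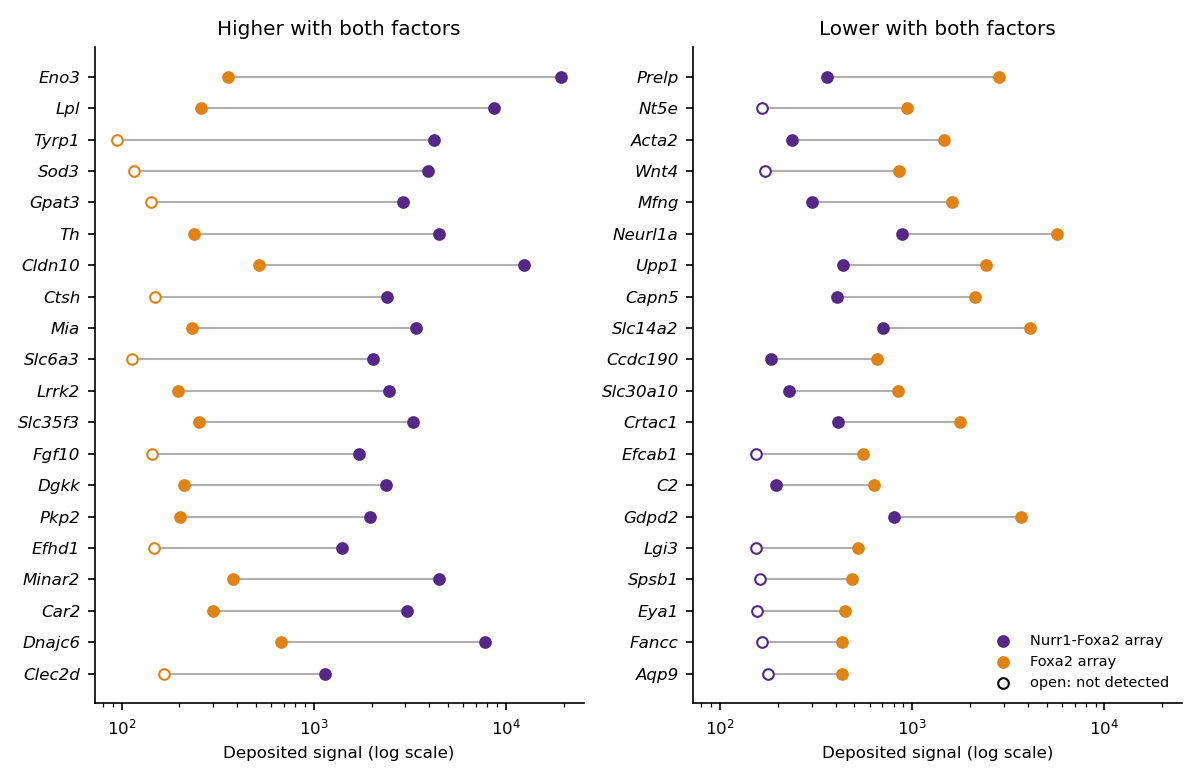
Deposited signals (log scale) on the Nurr1-Foxa2 array (purple) and the Foxa2 array (orange) for the 12 genes with the largest measured and the 8 with the largest bounded difference in each direction; open circles were not detected. On the left the Nurr1-Foxa2 signals run from 1140 (Clec2d) to 19418 (Eno3), and on the right the Foxa2 signals run from 430 (Aqp9) to 5641 (Neurl1a).

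Floor plate and Hedgehog genes mostly lay lower with both factors than with Foxa2 alone, 12 of 14 below 0. Of 31 listed genes 16 had a named probe and 14 were detected. Of these 5 were lower by 2-fold or more and 0 higher, against 3.70% and 4.82% of all genes. The median was -0.51. Shh, the floor plate morphogen, had a signal of 1040 with both factors and 3414 with Foxa2, 3.45-fold lower, and its second probe differed to the same extent (-1.81 against -1.79, log2). Corin, a floor plate protease gene, had 485 and 1141 (2.62-fold lower). Genes that respond to Shh signalling lay in the same direction: Ptch1, the receptor, had 277 and 558 (2.51-fold lower), Hhip, a Shh-binding inhibitor, 166 and 402 (at least 3.56-fold lower) and Nkx2-2, a ventral homeobox target, 219 and 629 (4.21-fold lower). Slit2, a midline guidance gene, lay the other way at 0.68, below 2-fold. Between the Nurr1 and Control arrays, neither of which detected Shh or Hhip, Nkx2-2 (-1.73) and Ptch1 (-0.75) were lower too, and Slit2 was higher (2.92). Nkx2-2 is also in the oligodendrocyte list. Whether the lower values of Ptch1, Hhip and Nkx2-2 followed that of Shh was not tested.

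Neural progenitor and radial glia genes mostly lay lower with both factors. Of 32 listed genes, 22 had a named probe and 21 were detected; 11 were lower by 2-fold or more and 0 higher, against 3.70% of all genes lower. Of these members 4 lay above 0 and 17 below, while 42.5% of 3129 genes of the same level lay above 0. The list median was -1.06. Neurog2, a proneural factor, had 478 with both factors and 1530 with Foxa2 (3.69-fold lower). The glutamate transporter gene Slc1a3 had 21127 and 48858 (2.44-fold), the aldolase gene Aldoc 3592 and 8408 (2.40-fold) and the neural stem cell transcription factor gene Sox2 2243 and 5149 (2.36-fold). The repressors of neuronal differentiation Hes5 and Hes1 were 2.46-fold and 2.37-fold lower.

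Notch pathway genes, which hold progenitors undifferentiated, had 8 of 23 detected members lower by 2-fold or more and 0 higher (median -0.80). Over all genes 3.70% were lower and 4.82% higher. The lists overlap, and the lower genes Hes1 and Hes5 are in both this list and the progenitor list. Beyond Mfng and Neurl1a, the target genes Hey1 (2573 with both factors and 8166 with Foxa2, 3.23-fold) and Nrarp (1372 and 3499, 2.64-fold) were lower. The list median was -0.47 without background correction, and -0.45 with the authors' deposited values.

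Oligodendrocyte lineage genes had the lowest median of the lists with at least 5 detected genes, -1.13. Of 18 members 11 were at least 2-fold lower and 1 higher, against 3.70% and 4.82% of all genes. Tmem100 had 265 with both factors and 739 with Foxa2 (3.71-fold lower), the receptor gene of oligodendrocyte precursors Gpr17 1652 and 4278 (2.65-fold), the transcription factor gene Sox8 534 and 1235 (2.55-fold) and Bcas1 4318 and 10320 (2.44-fold). Cldn11, a claudin of myelin, went the other way with 5427 and 1471 (3.85-fold higher). Summed over the detected members, the signal was 54610 with both factors and 80475 with Foxa2.

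Astrocyte genes split. Of 19 detected members 8 were at least 2-fold lower and 3 higher, against 3.70% and 4.82% of all genes, with a median of -0.49. The lower genes Slc1a3 and Aldoc are in this list and in the progenitor list. Sparcl1 was 3.42-fold lower, Apoe, the lipoprotein of astrocytes, 3.21-fold (1117 with both factors and 3416 with Foxa2), the water channel gene Aqp4 3.05-fold and Fgfr3 2.98-fold. The neurotensin receptor gene Ntsr2 was 7.02-fold higher (2980 and 503) and the metallothionein gene Mt2 6.89-fold higher (1385 and 274). The third higher member was the metallothionein gene Mt1 (62971 and 28600). Mt3, a metallothionein of brain that is not in this list, had 64378 and 15417. The 64378 of Mt3 was the highest signal of any probe on that array. It and the 62971 of Mt1 may lie at the limit of the scanner, and no exact fold is given for either.

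Neuronal genes gave no common direction. Of 23 detected pan-neuronal members 4 were at least 2-fold higher and 1 lower, with 11 above and 12 below 0 and a median of -0.06, close to that of all genes. The neurofilament gene Nefm had 455 with both factors and 185 with Foxa2 (3.65-fold higher), the neurexin gene Nrxn3 858 and 363 (2.82-fold) and the neuronal enolase gene Eno2 2008 and 850 (2.53-fold). Rbfox3, the gene of the mature neuron marker NeuN, had 704 and 2039 (3.13-fold lower). Of 21 synaptic vesicle genes (median 0.23), 3 were higher by 2-fold or more, led by Dnajc6 and by Nsf, the ATPase that takes apart fusion complexes (10499 and 3088, 3.45-fold), and Cplx2, a regulator of vesicle fusion, 2.35-fold lower. Neurite cytoskeleton genes had 2 of 30 higher, and of these Map1b is uncertain: its brightest probe gave 1.40 and its other 3 probes between -0.63 and -0.29. The neuropeptide gene Npy was 4.17-fold lower (256 and 785).

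Channel genes differed in both directions. Of 16 detected members 5 were at least 2-fold higher and 4 lower, against 4.82% and 3.70% of all genes. The glutamate receptor gene Gria3 was 3.84-fold higher (1934 with both factors and 572 with Foxa2) and Gria1 3.63-fold lower (373 and 1129), with the other Gria1 probes at -1.54 and -1.69 and those of Gria3 at bounds of 1.39 and 0.72. The nicotinic subunit gene Chrna5 was at least 6.04-fold higher, the sodium channel subunit gene Scn3b 3.28-fold and the calcium channel gene Cacna1a 3.13-fold.

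Guidance genes divided likewise, with 6 of 29 higher and 3 lower, against 4.82% and 3.70% of all genes. Both neuropilins, co-receptors for semaphorins and for vascular endothelial growth factor, differed and in opposite directions: Nrp2 had 384 with both factors and 168 with Foxa2 (at least 3.36-fold higher) and Nrp1 766 and 1732 (2.39-fold lower). Flrt2 was 3.49-fold higher, Sema5a 3.43-fold, the netrin gene Ntn4 2.95-fold and Draxin 2.84-fold lower.

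Cell cycle genes differed little from their level with Foxa2 alone. None of 29 detected mitosis genes and none of 33 S phase genes differed by 2-fold, with medians of 0.00 and -0.16. The values of mitosis genes ran from -0.32 to 0.60, with 15 above and 14 below 0. S phase genes ran from -0.75 to 0.82 and mostly lay a little lower, 26 of 33 below 0, with 21.2% above 0 against 42.7% of 2278 genes of the same level. Among them Mcm3 lay at -0.75 and Mcm5 at -0.39, both subunits of the replicative helicase. Of 14 cyclin-dependent kinase inhibitor, cyclin D and related genes, 2 were at least 2-fold higher and 1 lower, with a median of -0.31. Cdkn1a, an inhibitor of cyclin-dependent kinases, had 4954 with both factors and 1573 with Foxa2 (3.28-fold higher), Cdkn1c, another, 8315 and 26362 (3.21-fold lower), and the retinoblastoma gene Rb1 6054 and 2026 (3.05-fold higher).

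Genes of the mitochondrial respiratory chain were mostly a little higher. Of 61 detected members 55 lay above 0 (90.2%, against 44.0% of all genes), with a median of 0.31, while only 3 reached 2-fold. All 1709 genes whose mean level lay between the lower and upper quartile of these members were set beside them, and 46.1% of those lay above 0 with a median of -0.03. Over the 8 alternative ways of processing the median lay between 0.30 and 0.34. The ATP synthase subunit gene Atp5g1 had 20607 with both factors and 8430 with Foxa2 (2.38-fold higher). Chchd10, a protein of the space between the mitochondrial membranes, had 4964 and 719 (7.79-fold higher). It is counted in this list, and among the 3 at 2-fold, though it is not a subunit of the chain. Apart from these and Ndufb9 (2.08-fold, and under 2-fold without background correction), the members' differences were small.

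**Figure D3:**
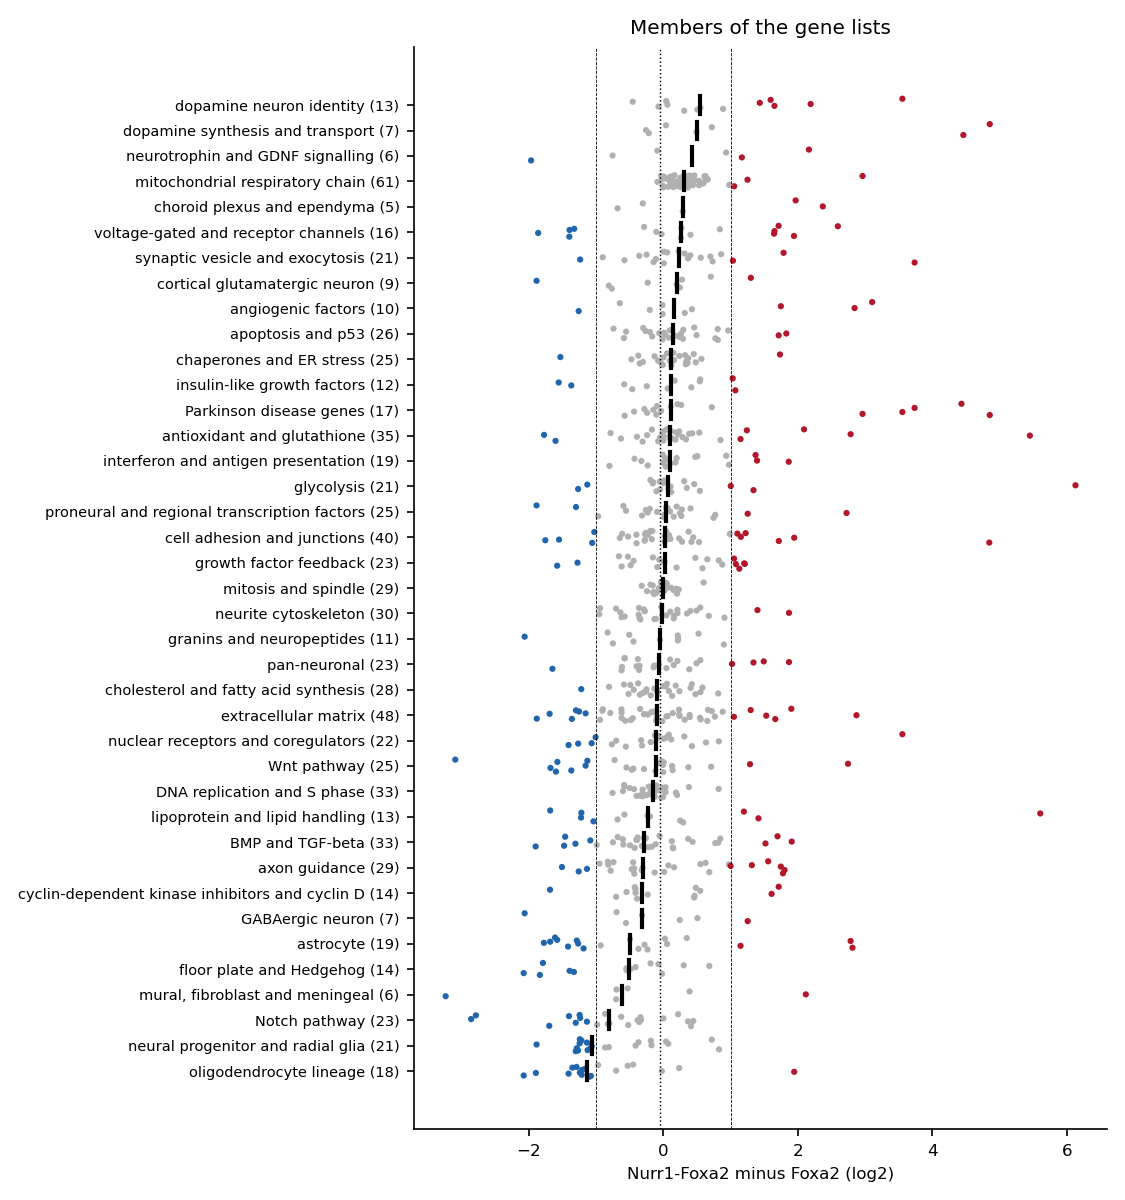
Differences between the Nurr1-Foxa2 and Foxa2 arrays (log2) of every detected member of each list with at least 5 detected genes, with the list median as a bar, the median of all genes as a dotted line and dashed lines at 2-fold. The oligodendrocyte (-1.13), progenitor (-1.06) and Notch (-0.80) lists lie lowest, and respiratory chain genes cluster just above 0.

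Secreted signals and their receptors differed gene by gene. The list counts given here stand beside 4.82% of all genes at least 2-fold higher and 3.70% lower. Vegfa, the main growth factor of blood vessels, had 4198 with both factors and 571 with Foxa2 (8.60-fold higher, and 2.79 in log2 by its second probe), and Angpt2, a vessel factor, 3923 and 625 (7.18-fold, and a bound of 1.85 by its dimmer probe). In the Wnt list 7 of 25 members were lower and 2 higher: the antagonist gene Sfrp1 had 2901 and 9077 (3.19-fold lower) and the receptor genes Fzd7 (3.02-fold) and Fzd10 (2.98-fold) were lower, while Fzd6 was 6.71-fold higher (844 and 198). In the BMP and TGF-beta list 5 of 33 were lower and 3 higher, with the activin antagonist gene Fst 3.72-fold lower, Fstl1 3.76-fold higher and the BMP antagonist gene Chrd 2.87-fold higher. Igfbp5, which binds insulin-like growth factors, had 5469 and 15982 (2.94-fold lower).

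Matrix genes had 6 of 48 members higher and 6 lower. Over all genes the shares were 4.82% and 3.70%, for this list and those that follow. Among the matrix genes were the tissue inhibitor of metalloproteinase genes Timp3 (750 and 2566, 3.68-fold lower, with a dimmer probe at a bound of -0.21) and Timp4 (3.22-fold lower). The matrix protein gene Spon2 was 7.32-fold higher and the basement membrane collagen gene Col4a1 3.74-fold higher. Antioxidant genes had 5 of 35 higher, which included Sod3 and the metallothioneins, and 2 lower, Gstm1 (3.41-fold, with a dimmer probe at a bound of -0.75) and Mgst1 (3.03-fold). B2m, the light chain of class I antigen-presenting molecules, had 5960 and 1697 (3.64-fold higher), and 3 of 19 interferon and antigen presentation genes were higher and none lower. Of 25 proneural and regional transcription factors 2 were higher and 2 lower, near the shares of all genes (4.82% and 3.70%), and Klf5 had 3454 and 599 (6.61-fold higher).

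Nuclear receptors and their partners had 1 of 22 detected members higher, the added factor Nr4a2 itself, and 4 lower. Over all genes 4.82% were higher and 3.70% lower. The retinoic acid receptor gene Rarb had 337 with both factors and 747 with Foxa2 (2.65-fold lower). Rcor2, a corepressor gene, was 2.40-fold lower, the progenitor receptor gene Nr2e1 2.09-fold and Rxrg, a retinoid X receptor, 2.01-fold. The last 3 fell under 2-fold without background correction, and Rxrg also with equal medians. Rxrg had signals of 188 and 281, near the lowest detected (179 and 173).

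Markers of other cell types were checked. None of 3 microglia genes with a named probe was detected, of 3 endothelial genes 2 were, with summed signals of 2029 with both factors and 1291 with Foxa2, and no gene of serotonin and noradrenaline neurons has a named probe. The mural and meningeal list had 1 of 6 detected genes higher, Foxc1 (at least 4.34-fold), and 1 lower, Acta2, with summed signals of 4832 and 7876. Of 5 choroid plexus and ependyma genes 2 were higher, Car14 (5099 and 1057, 5.17-fold) and Ttr (544 and 202, 3.91-fold). The part of such cells in the differences above was not tested.

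The same factor was also added without Foxa2, in the Nurr1 against the Control array. The 2 contrasts share no array and were normalized apart. Without Foxa2, 348 of 7909 genes (4.40%) were at least 2-fold higher and 230 (2.91%) lower. Across 7123 genes measured on all 4 arrays, which are not independent replicates, the differences with and without Foxa2 correlated at r = 0.552 (Spearman's rho 0.394). A value in both contrasts was had for 7728 genes, of which 143 were higher by 2-fold or more each time, which is 40.7% of those higher with Foxa2 and 41.4% of those higher without. At least 2-fold lower in both were 121, or 43.4% of those lower with Foxa2 and 54.5% of those lower without. Of the 351 genes higher with Foxa2 that have a value in both contrasts, 297 lay above 0 without it, against 45.4% of all genes. Of the 279 lower with Foxa2, 249 lay below 0 without it, against 53.5% of all genes.

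**Figure D4:**
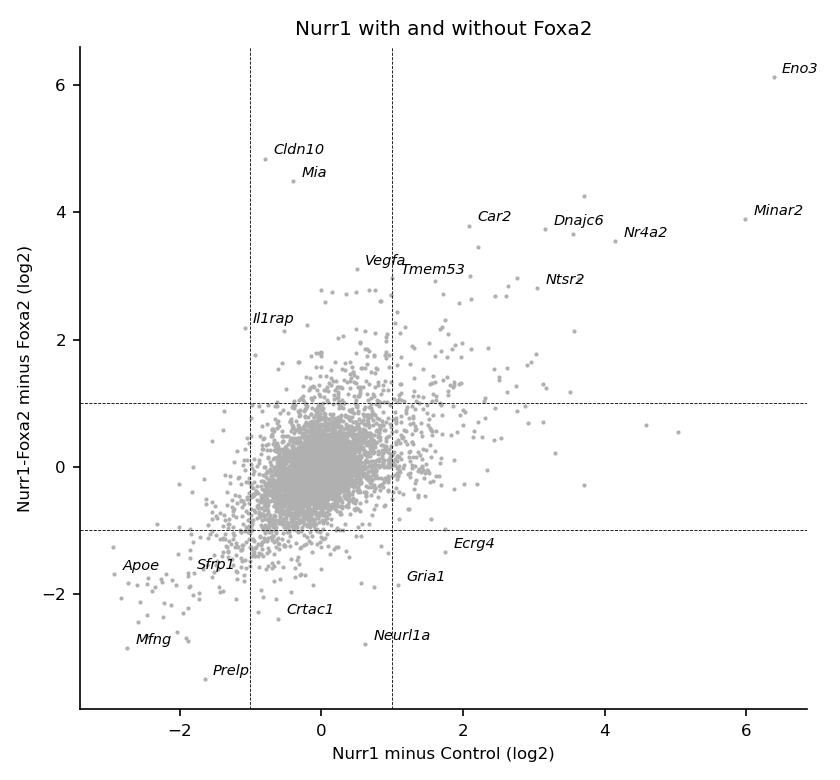
Difference between the Nurr1-Foxa2 and Foxa2 arrays (log2, vertical) against the difference between the Nurr1 and Control arrays (log2, horizontal). Shown are 7123 genes detected on all 4 arrays, with dashed lines at 2-fold. Eno3 stands at the upper right in both, while Cldn10 and Mia stand high with Foxa2 and below 0 without.

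Some genes had like differences in both settings. Eno3 differed by 6.13 (log2) with Foxa2 and by 6.39 without, and Ntsr2 by 2.81 and 3.05. On the lower side Mfng differed by -2.85 and -2.74, Slc14a2 by -2.68 and -2.47 and Slc30a10 by -2.44 and -2.59. Tyrp1 had bounds of 5.56 with Foxa2 and 5.88 without, and Gpat3 of 5.01 and 4.68, which do not show how alike the differences were. Th differed by 4.85 with Foxa2. Without Foxa2 it had 188 with Nurr1 and 101, not detected, with the empty virus, which gives a bound of 0.19 and no upper limit. Slc6a3 differed by at least 4.46 with Foxa2, and no value could be given without it, since the Nurr1 signal (171) did not exceed the bound. Cldn10 differed by 4.85 and -0.79, Mia by 4.49 and -0.40 and Vegfa by 3.10 and 0.50. Sod3 had bounds of 5.45 with Foxa2 and 0.93 without, and Ctsh and Fgf10 were detected on neither the Nurr1 nor the Control array. Neurl1a differed by -2.78 with Foxa2 and by 0.62 without. Wnt4 had a bound of -3.09 with Foxa2 and was detected neither with Nurr1 nor with the empty virus. With 1 array a group the difference between the 2 settings was not tested for any gene.

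Cell cycle genes were among those whose list medians differed between the settings. Of mitosis genes none of 29 was 2-fold different with Foxa2, and 19 of 30 were at least 2-fold higher without it, with medians of 0.00 and 1.22. Over all genes 4.40% were at least 2-fold higher without Foxa2. Prc1, a spindle midzone gene picked out after its values were seen, had 2608 with both factors and 3117 with Foxa2, and 3380 with Nurr1 and 1151 with the empty virus. Cenpa, a centromere histone gene picked out likewise, had 3831 with both factors and 3356 with Foxa2, and 5358 with Nurr1 and 2007 with the empty virus. Both genes thus had their lowest signal on the Control array. Their difference without Foxa2 rests on that 1 array, and why it was low was not tested. S phase genes had medians of -0.16 with Foxa2 and 0.55 without. Progenitor (-1.06 and -0.68) and oligodendrocyte genes (-1.13 and -0.67) were lower in both settings, and respiratory chain genes had a median of 0.31 with Foxa2 and 0.00 without.

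**Figure D5:**
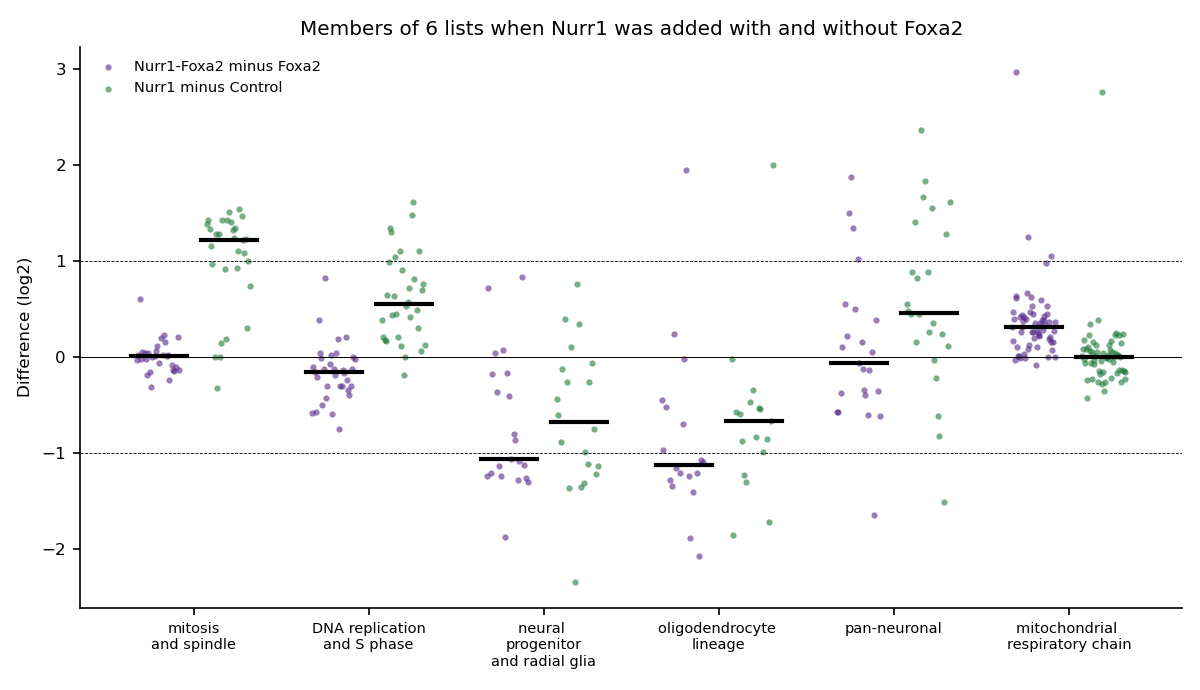
Differences (log2) of the detected members of 6 lists when Nurr1 was added with Foxa2 (purple, Nurr1-Foxa2 minus Foxa2) and without it (green, Nurr1 minus Control); bars are medians and dashed lines 2-fold. Mitosis genes lie around 0.00 with Foxa2 and around 1.22 without.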

How the data were processed

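Per the labels' protocols, total RNA was extracted with Trizol and made into biotinylated complementary RNA for a bead array, 1 per group. The authors deposited, per the file headers, a bead intensity and a detection p-value per probe and array (the lowest intensity on each array lay between 59.7 and 63.9, so the values hold background), and a value table on a log2 scale, quantile normalized as its values show. The scanner software is not given in the sources used here. Probe names came from the platform annotation, which names only probes of the value table, so 13213 probes are unnamed; 12480 named probes matched RefSeq genes of GRCm38.p6 by Entrez identifier.

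The intensities of the Nurr1-Foxa2 and Foxa2 arrays were background-corrected and quantile normalized with neqc (offset 16) of limma 3.58.1 in R 4.3.3, which estimates background from the detection p-values. The Nurr1 and Control arrays were treated alike and apart. Tables were handled with Python 3.11.15, pandas 2.3.3 and numpy 2.4.6, and figures drawn with matplotlib 3.10.9. A gene was represented by its brightest named probe over the 2 arrays and counted as different where the brighter array detected it (p-value under 0.01) and the fold was at least 2. The normalization and the 2-fold call were tried on simulated arrays in which only bright probes were given known folds. The bounds and the choice of probe were not part of that trial, so it does not cover dim or bounded genes. With 1 array per group no test between groups exists, and the number of arrays limits the precision. Text names come from a rule: the 12 largest measured and 8 largest bounded differences in each direction, all genes of dopamine synthesis, and up to 6 genes at least 2-fold different per list, with all such genes of the dopamine identity, neurotrophin, nuclear receptor and floor plate lists. Bdnf, Ntrk3, En2, Lmx1b, Drd2, Dct, Ednrb, Slit2, Col23a1, Mt1, Mcm3, Mcm5, Prc1 and Cenpa fall outside it and were chosen after their values were seen. The members and lists were chosen with earlier results of these data known. Alternatives tried were no background correction, equal medians, normalization over 4 arrays, the authors' values, an offset of 50, detection under 0.05, no filter, and the mean of a gene's probes.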

Additional observations from a re-analysis of the deposited data

Results flagged for a closer look

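The difference on adding Nurr1 was at least 2-fold in opposite directions with and without Foxa2 in 8 genes, picked out after their values were seen. It was not tested with 1 array a group. Of the 351 genes higher with Foxa2 that have a value in both contrasts, 2 were lower without it, as were 2.91% of all genes. Of the 279 genes lower with Foxa2, 6 were higher without it, as were 4.40% of all genes. Such genes were thus no more frequent than these shares. Lower with Foxa2 and higher without were Acta2 (log2 -3.23 with Foxa2 and at least 1.16 without), Gria1 (-1.86 and 1.08), Rarb (-1.41 and at least 1.57), Ecrg4 (-1.34 and 1.75), Arhgap24 (-1.25 and at least 1.25) and Melk (-1.02 and at least 1.09). Higher with Foxa2 and lower without were Il1rap (2.19 and -1.08) and C1ql1 (1.46 and -1.48, a bound). With Foxa2, all 5 Il1rap probes lay between 2.19 and 2.58, both Rarb probes at -1.41 and -1.57, and the other Acta2 probes at bounds of -1.12 and -1.37. The other 2 Melk probes were detected on neither array, with signals of 109 and 114 with both factors and 81.9 and 98.1 with Foxa2, the other way round. Melk and C1ql1 fell short of 2-fold with Foxa2 when background was not corrected.

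Probes without a gene name held further signal. Of 907 such probes detected on either array, 101 were at least 2-fold higher with both factors and 43 lower, 144 in all. They are not analysed further here.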

How the results depend on the processing

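No paired analysis was possible because each group has 1 array, and for the same reason no replicate could be left out. The count of higher genes, 388, lay between 280 and 454 over the 8 alternatives, and that of lower genes, 298, between 200 and 358. The share of higher genes, 56.6%, was 55.8% at the lowest, with normalization over 4 arrays, and highest with equal medians (415 higher and 277 lower). The lowest counts came with the authors' deposited values (282 and 200) and without background correction (280 and 202), and the cause was not tested. Of 165 named genes at least 2-fold apart, 141 kept that difference under each of these 2 settings, 155 with an offset of 50, and between 162 and 165 under the others. Map1b reversed, to -0.0009 (log2) as the mean of its probes. Medians of pan-neuronal genes crossed that of all genes under 5 alternatives, and those of 3 other lists (neurotrophin, matrix, mural) under 1 or 2. Dim genes are limited by background: the lowest detected signals were 179 on the Nurr1-Foxa2 array and 173 on the Foxa2 array.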

Other observations

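Of 23 detected feedback and immediate response genes of growth factor signalling, 5 were at least 2-fold higher and 2 lower with both factors, against 4.82% and 3.70% of all genes, with 13 above and 10 below 0 and a median of 0.02 (log2). Dusp4, one of the 5, fell under 2-fold without background correction, with the authors' values and as the mean of its probes. Egr1, an immediate early transcription factor gene, had 5521 with both factors and 2448 with Foxa2 (2.30-fold higher), and Errfi1, an inhibitor of the EGF receptor, 2909 and 1395 (2.19-fold). Among apoptosis and p53 genes 2 of 26 were higher and 0 lower, near the shares of all genes, and these were Cdkn1a and Pmaip1, a death-promoting gene (402 and 148, at least 3.55-fold). Sel1l, of protein quality control in the endoplasmic reticulum, had 5736 and 1792 (3.33-fold higher), while the chaperone gene Dnajc12 had 1674 and 4681 (2.89-fold lower).

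Adhesion genes had 6 of 40 members higher and 4 lower, against 4.82% and 3.70% of all genes. The integrin gene Itga3 had 1066 with both factors and 387 with Foxa2 (3.29-fold higher), and the adhesion molecule gene Vcam1 881 and 2797 (3.37-fold lower). In lipid handling, 3 of 13 genes were higher, led by Lpl, and 4 lower, led by Apoe, and Vldlr, a lipoprotein receptor, had 3077 and 1409 (2.29-fold higher). Cholesterol and fatty acid synthesis genes lay close together, with 1 of 28 at least 2-fold lower, the desaturase gene Fads2 (2229 and 5052, 2.33-fold). Eno3 stood apart in size from other glycolysis genes, whose list had a median of 0.08 (log2). Of 21 detected members 3 were at least 2-fold higher and 2 lower, against 4.82% and 3.70% of all genes. Besides Eno3 these were Eno2 (2.53-fold) and Pfkp (2.00-fold), both higher, and Aldoc (2.40-fold) and Egln3 (2.19-fold), both lower. Pfkp and Egln3 fell under 2-fold without background correction.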
